A study of Mus musculus with 6 samples.

Results

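The TGF-beta (transforming growth factor beta) signalling genes examined here are 10 genes of the deposited mouse count table: the ligand Tgfb1, the receptors Tgfbr1, Tgfbr2 and Tgfbr3, the signal transducers Smad2, Smad3 and Smad4, and the feedback genes Smad7, Ski and Skil. They were taken by gene symbol from 29872 symbols, all 10 had a row, and all 10 had enough counts to be tested. The libraries were 3 labelled CML (chronic myeloid leukaemia stem cells, expanded ex vivo) and 3 labelled WT (wild-type haematopoietic stem cells, expanded ex vivo). All 6 came from untreated C57BL/6 bone marrow, with a sort for lineage-negative cells positive for Sca1, cKit and CD150, and were sequenced in bulk after Nextera XT library preparation. The labels do not give the transgene or promoter behind the leukaemia, the age of the mice, the number of animals, the order of sort and expansion, or whether libraries are separate cultures. The p-values below therefore measure spread over these 6 libraries only, and that spread may be technical.

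TGF-beta ligand is secreted in a latent form and, once released, binds the type II receptor TGFBR2, which recruits and phosphorylates the type I receptor TGFBR1. The co-receptor betaglycan (Tgfbr3) presents ligand to this complex. TGFBR1 phosphorylates SMAD2 and SMAD3, which bind SMAD4 and enter the nucleus to regulate genes. SMAD7 blocks the receptor, and SKI and SKIL (also called SnoN) bind SMADs on DNA and repress their targets. In bone marrow, TGF-beta is known to hold haematopoietic stem cells in quiescence.

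Of the 10 genes, 4 were higher in CML (Skil, Ski, Smad7 and Tgfbr2) and 2 were lower (Tgfbr1 and Tgfbr3). Over all tested genes, 10.2% were called higher and 7.20% lower in CML, so that 58.6% of all calls were higher, against 73.8% when scaled by library totals. The remaining 4, Tgfb1, Smad2, Smad3 and Smad4, did not pass the test. The 3 feedback genes stood at 2.06 to 2.12 times their WT level, whereas the log2 fold changes of the 3 SMADs that carry the signal ran from -0.27 to 0.002. The test was edgeR's quasi-likelihood F test over 16221 genes called at a p under 0.05 after Benjamini-Hochberg adjustment, and levels are counts brought to a common library size with TMM scaling (CPM). The median log2 fold change of the 10 genes was -0.05, against -0.004 over all tested genes. For 7 of the 10 genes the groups had no overlap in CPM, a pattern found in 35.0% of all tested genes.

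**Figure D1:**
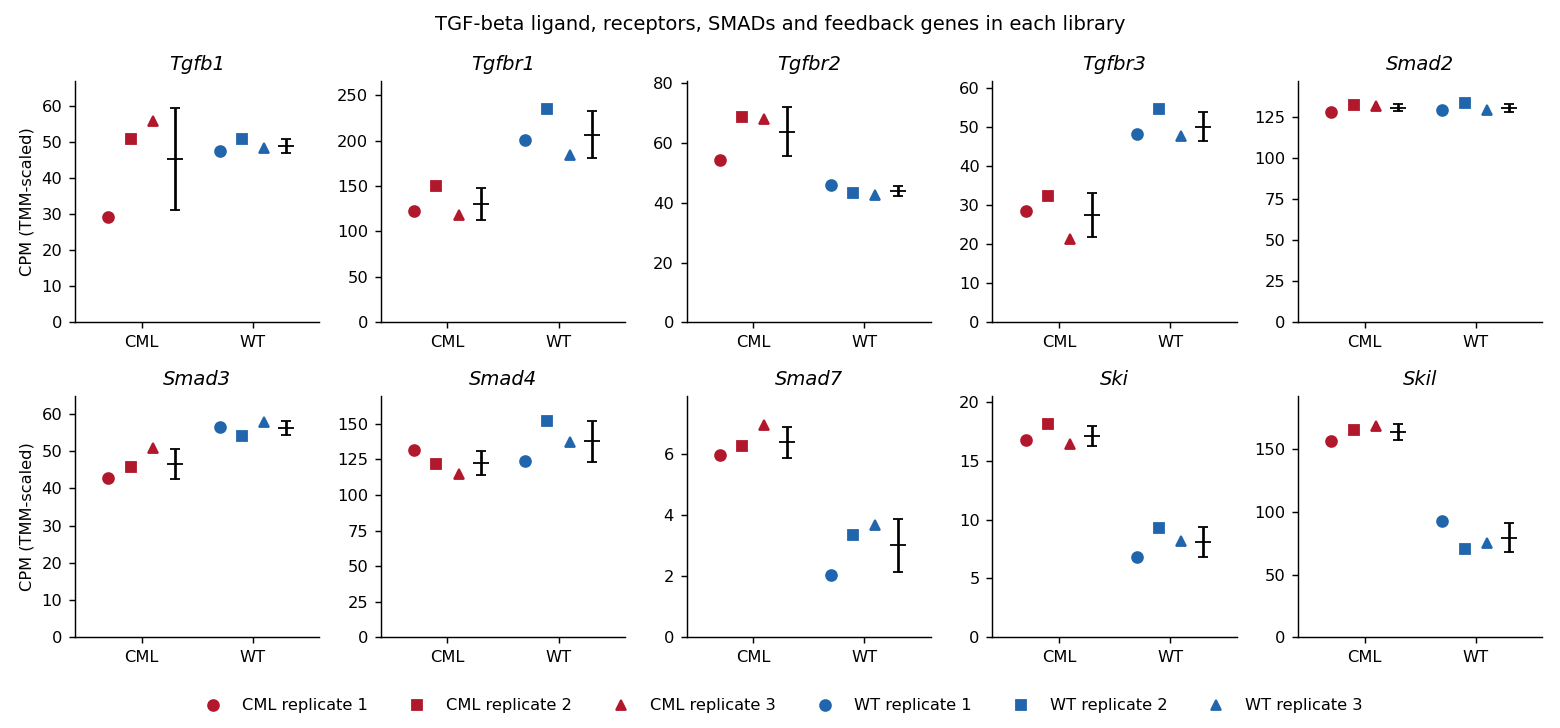
TMM-scaled CPM (vertical axis, from 0) of each of the 10 genes in the 3 CML libraries (red, left) and the 3 WT libraries (blue, right), with symbols for replicates and black bars for the mean and SD of each group. Skil, Ski, Smad7 and Tgfbr2 have every CML point above every WT point, Tgfbr1, Tgfbr3 and Smad3 have every CML point below, and the points of Tgfb1, Smad2 and Smad4 overlap.

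After rounding, the libraries held 13323469 to 15433481 counts in CML and 15930585 to 17926847 in WT. The gate was checked through its genes. Kit and Ly6a (Sca1) were present in every library, with Kit at 202 to 402 CPM in CML and 285 to 302 CPM in WT. Ly6a was at 65.3 to 172 CPM in CML and 40.0 to 64.2 CPM in WT. Slamf1 (CD150) was at 11.2 to 19.2 CPM in CML and 18.7 to 31.8 CPM in WT, the 1 gate gene of the 3 that was called (adjusted p = 0.0470, edgeR). Markers of some other cell types moved with the group. Beside the marker counts below, 10.2% of all tested genes were called higher and 7.20% lower. The summed level of 10 mast cell and basophil markers was 2032, 7203 and 4508 CPM in CML replicates 1, 2 and 3, against 328, 146 and 317 CPM in WT replicates 1, 2 and 3, with 6 of 10 called higher. For 9 monocyte and macrophage markers the sums were 115 to 208 CPM in CML and 23.0 to 33.9 CPM in WT, with 5 of 8 tested called higher. Among the mast cell markers, Tpsab1 and Mcpt4 were at 0 in WT replicate 2. The sums of 8 dendritic cell markers were 59.0 to 254 CPM in CML and 9.80 to 14.8 CPM in WT (4 of 6 tested called higher), and those of 8 stem cell markers 273 to 288 CPM in CML and 361 to 466 CPM in WT (1 of 7 higher, 3 lower). Of 12 lymphoid markers 5 were tested and 3 called higher, with sums of 82.6 to 114 CPM in CML and 64.7 to 85.9 CPM in WT. Of 6 tested erythroid markers 2 were higher and 2 lower, with sums of 227 to 280 CPM in CML and 214 to 239 CPM in WT. These sums join large shifts in opposite directions, in genes chosen after their values were seen. Aqp1 was at 163 to 255 CPM in CML and 6.99 to 9.78 CPM in WT. Hbb-bt was at 15.1 to 51.7 CPM in CML and 157 to 177 CPM in WT, and Hbb-bs at 6.09 to 17.3 and 48.2 to 57.2 CPM. Neutrophil markers summed to 156 to 259 CPM in CML and 128 to 252 CPM in WT, and 0 of the 7 tested were called by edgeR (1 lower at an unadjusted p under 0.05), with 0 higher and 0 lower by DESeq2 and 0 and 0 by limma-voom. The sums of 9 stromal and endothelial markers were 2.77 to 4.52 CPM in CML and 7.01 to 7.66 CPM in WT, and Kdr was the 1 tested and was called lower. Without Kdr, chosen after its values were seen, they were 1.51, 1.24 and 3.00 CPM in CML and 0.836, 1.33 and 0.249 CPM in WT. Some markers called higher passed the low-count filter through CML and could hardly have been called lower. These were Tpsab1 (mast cell), Batf3 and Fscn1 (dendritic), Klf1 (erythroid) and Tcf7 (lymphoid), with 5, 4, 9, 7 and 13 counts in WT. In bulk RNA, a changed number of cells of a type and a changed level per cell cannot be told apart, and the part of these other cells in the results below was not tested.

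The ligand gene Tgfb1 (chromosome 7, 25687002 to 25705077, GRCm38) was at 29.3, 50.7 and 55.6 CPM in CML replicates 1, 2 and 3, against 47.3, 50.8 and 48.3 CPM in WT. CML replicate 1 stood below all other libraries, and the other CML libraries lay within or above the WT range. The log2 fold change was -0.11 (SE 0.20, adjusted p = 0.756, edgeR), with a 95% interval from -0.57 to 0.35. Without CML replicate 1 it was 0.12. Megakaryocytes and platelets are a known store of TGF-beta. Pf4, a platelet factor gene chosen after its values were seen, was likewise lowest in CML replicate 1. It was at 25.4, 53.0 and 58.1 CPM in CML and 72.9, 77.9 and 80.2 CPM in WT, and was not called. Kit, a gate gene also chosen after its values were seen, was lowest in CML replicate 1 too. It was at 202, 402 and 321 CPM in CML and 285 to 302 CPM in WT. Its values in CML replicates 2 and 3 were above the WT values, unlike those of Pf4. The part of platelet RNA in the Tgfb1 values was not tested. Among the 6 tested megakaryocyte markers, 3 had a positive log2 fold change and 3 a negative one. The summed level of the 9 megakaryocyte markers was 240.1, 364 and 355 CPM in CML and 245, 247 and 275 CPM in WT, with 1 of 6 tested called higher (Itgb3) and 1 lower (Itga2b). Without Itgb3, chosen after its values were seen, the sums were 90.8, 145 and 168 CPM in CML and 190.3, 192 and 206 CPM in WT, with every CML sum below the WT sums.

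The type I receptor gene Tgfbr1 (chromosome 4, 47353222 to 47414931) encodes the kinase that phosphorylates SMAD2 and SMAD3. It stood at 122, 149.8 and 118 CPM in CML, against 200.1, 235 and 185 CPM in WT. Every CML value was below every WT value. It fell by 0.67 on the log2 scale in CML (SE 0.13, adjusted p = 0.00409, edgeR), so that the WT level was 1.59 times the CML level.

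The type II receptor gene Tgfbr2 (chromosome 9, 116084293 to 116175360) encodes the ligand-binding kinase of the pair and moved the opposite way. It was at 54.4, 68.9 and 68.1 CPM in CML, against 45.9, 43.3 and 42.8 CPM in WT, with no overlap. The increase was 0.53 on the log2 scale (SE 0.13, adjusted p = 0.0104, edgeR), or 1.45-fold. The call did not hold when CML replicate 3 (adjusted p = 0.0576) or WT replicate 2 (0.0618) was left out, at log2 fold changes of 0.48 and 0.52.

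The ratio of Tgfbr2 to Tgfbr1 per exon length does not depend on the scaling between libraries. It was 0.355, 0.367 and 0.461 in CML replicates 1, 2 and 3, against 0.183, 0.147 and 0.185 in WT. The ratios of the groups did not overlap, with means of 0.394 ± 0.0581 in CML and 0.172 ± 0.0215 in WT (SD, n = 3 each). Tgfbr1 transcripts therefore outnumbered Tgfbr2 transcripts in all 6 libraries, by less in CML than in WT. This ratio was chosen after both values were seen and was not tested.

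The co-receptor gene Tgfbr3 (chromosome 5, 107106570 to 107289629) fell further than any other of the 10 genes. It was at 28.6, 32.5 and 21.3 CPM in CML, against 48.1, 54.5 and 47.7 CPM in WT. All CML libraries were below all WT libraries. The decrease was 0.87 on the log2 scale (SE 0.15, adjusted p = 0.00184, edgeR), and the WT level was 1.83 times the CML level. An unnamed gene model on the same strand, Gm43422, shares exon sequence with Tgfbr3 and held 108 counts in CML and 207 in WT, against 1240 and 2434 for Tgfbr3. How reads of the shared part were divided is not given in the sources used here.

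Among the SMAD genes, Smad2 (chromosome 18, 76241580 to 76310963) was the steadiest. It was at 128, 132 and 132 CPM in CML, against 129, 133 and 129 CPM in WT. The groups overlapped, and the difference was 0.002 on the log2 scale (SE 0.10, adjusted p = 0.993, edgeR) with a 95% interval from -0.22 to 0.22. Changes of Smad2 within that interval remain compatible with these values.

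Smad3 (chromosome 9, 63646767 to 63757994), the other receptor-activated SMAD gene of the pathway, was at 42.9, 45.9 and 50.9 CPM in CML, against 56.6, 54.1 and 58.0 CPM in WT. All CML values lay below the WT values, but the log2 fold change, -0.27 (SE 0.12; edgeR, adjusted p = 0.126), did not pass after adjustment over all genes. Smad4 (chromosome 18, 73639009 to 73703780) encodes the shared partner of the activated SMADs. It was at 131.5, 122 and 115 CPM in CML, against 124, 152 and 137 CPM in WT, with overlapping groups and -0.17 as the log2 fold change (SE 0.12; edgeR, adjusted p = 0.367).

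The feedback genes had the largest increases of the 10. Skil (chromosome 3, 31095058 to 31122577) encodes a corepressor that SMAD complexes recruit, and it is itself a known target of TGF-beta. It was at 156, 165 and 169 CPM in CML, against 92.9, 70.5 and 75.2 CPM in WT. The lowest CML library stood well above the highest WT library. The log2 fold change was 1.04 (SE 0.12, adjusted p = 1.12e-04, edgeR), or 2.06-fold.

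Ski (chromosome 4, 155154075 to 155222592), the founding member of the same corepressor family, was much scarcer, and moved by a like amount. It was at 16.8, 18.1 and 16.5 CPM in CML, against 6.81, 9.28 and 8.22 CPM in WT, with no overlap. The log2 fold change was 1.08 (SE 0.17, adjusted p = 7.82e-04, edgeR), or 2.11-fold.

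Smad7 (chromosome 18, 75367529 to 75395935) encodes the inhibitory SMAD that targets the type I receptor and is another known target of TGF-beta. It was the least abundant of the 10 genes, with 95, 86 and 111 counts in CML replicates 1, 2 and 3 and 34, 53 and 59 counts in WT replicates 1, 2 and 3. These correspond to 5.96, 6.27 and 6.95 CPM in CML, against 2.03, 3.35 and 3.67 CPM in WT. No CML value overlapped a WT value. The log2 fold change was 1.08 (SE 0.25, adjusted p = 0.00998, edgeR), with a wide 95% interval from 0.54 to 1.63.

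The calls of Skil, Ski, Smad7, Tgfbr1 and Tgfbr3 held in each of the 16 alternative settings. Over those settings the log2 fold change ran from 0.95 to 1.16 for Skil, from 0.96 to 1.18 for Ski and from 0.86 to 1.25 for Smad7. It ran from -0.78 to -0.57 for Tgfbr1 and from -1.01 to -0.72 for Tgfbr3.

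**Figure D2:**
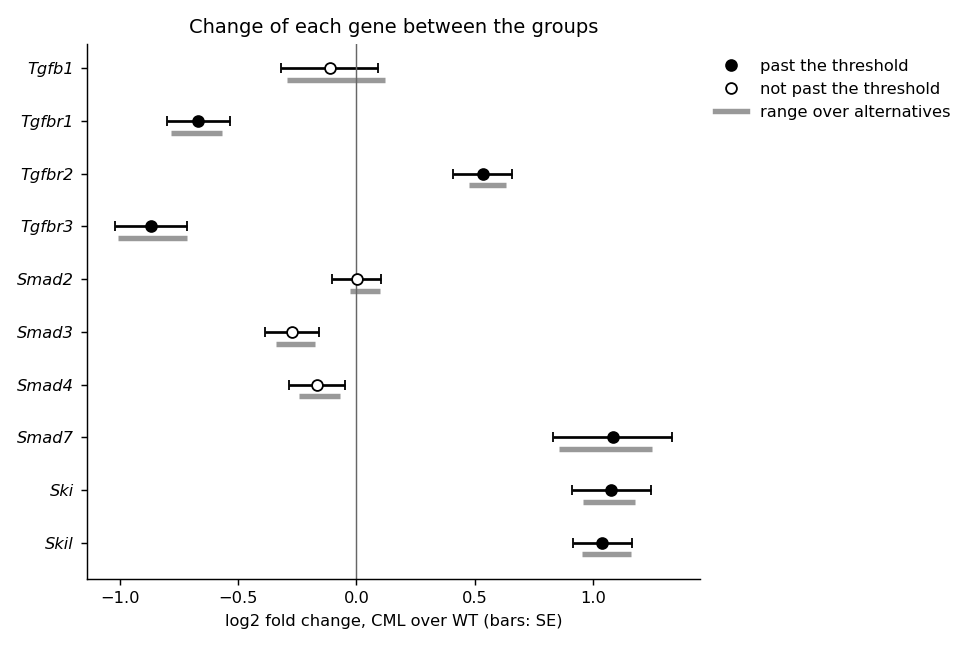
Log2 fold change of each of the 10 genes, CML over WT (horizontal axis), with bars for the SE, filled points for genes past the threshold and grey bars for the range over the 16 alternative settings. Skil, Ski and Smad7 cluster near 1, Tgfbr1 and Tgfbr3 lie to the left of 0, and the grey bars of Tgfb1 and Smad2 cross 0.

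Levels of different genes were compared per exon length, on the TPM scale (counts divided by exon length and brought to a common sum per library), within each group. Smad4 and Tgfbr1 had the highest group means in CML and in WT, with Smad4 at 89.4 ± 2.43 TPM in CML and 90.0 ± 10.2 TPM in WT (SD, n = 3 each). Tgfbr1 followed at 53.9 ± 7.91 TPM in CML and 76.7 ± 9.93 TPM in WT. In WT the ranges of these genes overlapped, and in CML they did not. Skil was next in CML, at 45.8 ± 3.74 TPM, and its range overlapped those of Tgfbr1 and Smad2. In WT it stood between Tgfb1 and Tgfbr3, at 17.8 to 22.9 TPM with a mean of 19.9, and its range overlapped both of theirs. Smad2 was at 40.3 ± 2.36 TPM in CML and 36.0 ± 0.970 TPM in WT.

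The middle of the order was close. In CML, Tgfb1 (24.5 ± 8.44 TPM), Smad3 (22.8 ± 2.89 TPM) and Tgfbr2 (21.2 ± 3.52 TPM) overlapped. In WT, Smad3 (24.6 ± 0.864 TPM) and Tgfb1 (23.5 ± 1.09 TPM) overlapped, and so did Skil and Tgfbr3 (18.6 ± 1.53 TPM). Tgfbr2 and Tgfbr3 changed places, with Tgfbr2 above Tgfbr3 in all 3 CML libraries and below it in all 3 WT libraries. Ski, at 8.33 ± 0.585 TPM in CML and 3.54 ± 0.577 TPM in WT, and Smad7, at 3.84 ± 0.455 TPM in CML and 1.62 ± 0.482 TPM in WT, were the lowest of the 10 in every library. With the longest annotated transcript as the length, the mean of Tgfb1 over all libraries was 39.9 instead of 24.0 TPM, and that of Skil 40.2 instead of 32.8 TPM. With that length, the CML mean of Skil, 55.9 TPM, was above that of Tgfbr1, 51.8 TPM. The places of Tgfb1, Skil and the genes near them in the order, Tgfbr1 among them, therefore depend on the gene model used.

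**Figure D3:**
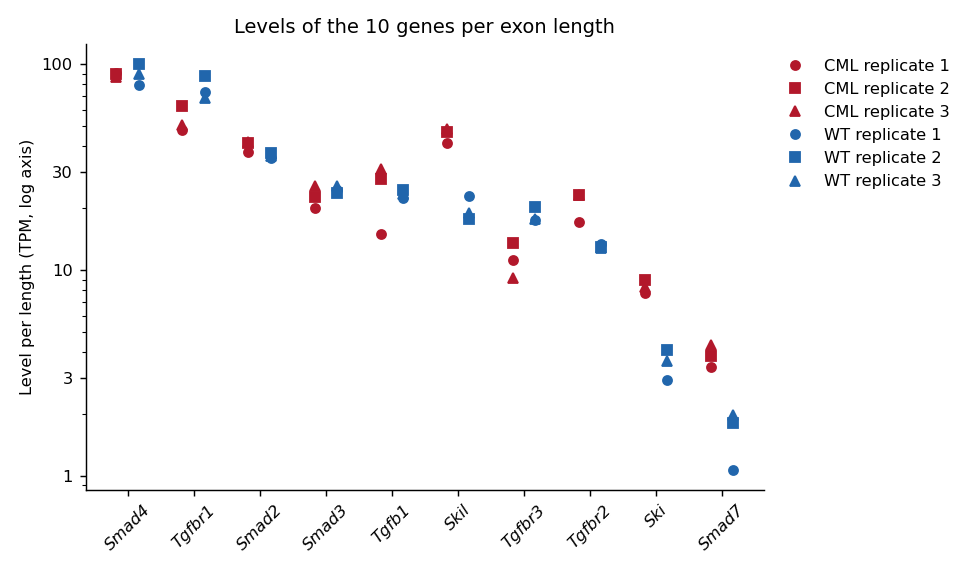
Level per exon length in TPM (vertical log axis) of the 10 genes, ordered by their WT mean, in each CML library (red, left) and each WT library (blue, right). Smad4 and Tgfbr1 lead, Ski and Smad7 are lowest in every library, and Skil stands higher in the CML order than in the WT order.

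Promoter windows from RefSeq (GRCm38.p6, 250 bases before to 50 after the annotated start) were read for 5 of the 10 genes. Windows are shown for the 3 of these genes that were called, to set beside each other the promoters of Ski and Tgfbr2, which rose, and of Tgfbr1, which fell. Sequences run 5′ to 3′ on the gene's strand, and capitals mark matches to known SMAD-binding motifs: GTCTAGAC, the palindromic SMAD-binding element, CAGAC (read as GTCTG on the other strand), and GGCGCC, a GC-rich motif. No motif overlaps another here.
Ski, minus strand, chr4:155222486-155222785: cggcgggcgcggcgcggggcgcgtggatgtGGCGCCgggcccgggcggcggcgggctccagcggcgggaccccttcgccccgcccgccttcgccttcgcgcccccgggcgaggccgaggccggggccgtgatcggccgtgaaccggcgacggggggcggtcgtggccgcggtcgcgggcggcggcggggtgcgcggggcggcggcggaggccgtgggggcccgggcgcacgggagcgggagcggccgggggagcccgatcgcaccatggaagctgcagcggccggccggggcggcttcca
Tgfbr2, minus strand, chr9:116175314-116175613: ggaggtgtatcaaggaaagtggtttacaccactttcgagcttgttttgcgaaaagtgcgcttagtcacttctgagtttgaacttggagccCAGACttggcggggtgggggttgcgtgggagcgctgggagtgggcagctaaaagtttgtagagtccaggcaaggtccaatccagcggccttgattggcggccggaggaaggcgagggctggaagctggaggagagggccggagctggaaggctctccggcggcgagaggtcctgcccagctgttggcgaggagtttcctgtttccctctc
Tgfbr1, plus strand, chr4:47352972-47353271: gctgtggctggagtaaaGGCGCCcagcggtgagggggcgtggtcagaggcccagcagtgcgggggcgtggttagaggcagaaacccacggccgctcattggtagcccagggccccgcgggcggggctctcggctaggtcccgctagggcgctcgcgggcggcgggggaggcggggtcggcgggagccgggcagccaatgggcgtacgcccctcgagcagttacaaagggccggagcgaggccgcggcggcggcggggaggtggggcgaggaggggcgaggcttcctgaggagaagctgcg
The Ski window held 1 GGCGCC, 220 bases before the start, and had a GC content of 85.3%. The Tgfbr1 window also held 1 GGCGCC, 233 bases before the start, at a GC content of 74.7%. The Tgfbr2 window held 1 CAGAC, 160 bases before the start, at 59.0% GC. A second annotated start of Tgfbr1 had 1 CAGAC. The windows of Tgfb1 and Smad3 held none of the 3 motifs. Among all 32851 windows of this length, 49.6% held CAGAC, 11.9% held GGCGCC and 0.213% held GTCTAGAC. Ski, which rose, and Tgfbr1, which fell, thus both held GGCGCC, and these matches describe the windows only.

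Genes whose profile over the 6 libraries was most like that of Skil or Tgfbr3, the called genes with the lowest adjusted p in each direction, were found by the root mean square difference of log2 CPM, each profile centred on its WT mean. Of 9936 candidates with a mean of at least 5 CPM, the nearest to Skil were Mob3c (0.098), Rel (0.098), which encodes an NF-kB subunit, and Lyst (0.101), a lysosomal trafficking gene. Their log2 fold changes were 1.11, 0.98 and 0.99. The nearest to Tgfbr3 were Rnf141 (0.109), Txn1 (0.111), which encodes thioredoxin, and Tulp3 (0.118), at -0.80, -0.85 and -0.83. The median difference over all candidates was 0.787 for Skil and 0.663 for Tgfbr3. With profiles centred on the WT mean, genes with a like fold change between the groups lie near by construction.

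Upstream of the receptors, Furin, Thbs1, Lrrc32 and Mmp14, which process, activate or hold the ligand, were higher in CML. Of 14 listed ligand and activation genes 9 were tested, of which 4 rose, 0 fell and 5 did not pass, with a median log2 fold change of 1.29. Beside this, 10.2% of all tested genes were called higher and 7.20% lower, with a median of -0.004. Without adjustment the counts of the list at p under 0.05 were 6 and 0, and DESeq2 and limma-voom also called 4 and 0. Furin, encoding the protease that cuts the TGF-beta precursor, was at 41.1, 112 and 72.9 CPM in CML, against 7.17, 7.20 and 8.59 CPM in WT. Its log2 fold change was 3.29 (SE 0.39, adjusted p = 0.00239, edgeR; 0.0530 without WT replicate 1). Thbs1 encodes thrombospondin-1, an activator of the latent ligand. It was at 4.21, 12.1 and 10.9 CPM in CML, against 1.31, 0.758 and 1.18 CPM in WT, a difference of 3.05 on the log2 scale (SE 0.42; edgeR, adjusted p = 8.71e-04).

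Lrrc32 encodes GARP, which tethers latent TGF-beta to the cell surface, and Mmp14 a membrane-bound metalloprotease. For Lrrc32 the sums were 195 counts in CML and 9 in WT, and the log2 fold change was 4.50 (SE 0.48; edgeR, adjusted p = 4.24e-05). For Mmp14 they were 97 counts in CML and 4 in WT, and on the log2 scale the difference was 4.60 (SE 0.60; edgeR, adjusted p = 2.12e-04). With so few WT counts, Lrrc32 and Mmp14 passed the low-count filter through CML and could hardly have been called lower. The count of higher genes and the median of the list include both. Tgfb3, chosen after its values were seen, also passed that filter through CML, with 65 counts in CML and 28 in WT. It was not called, and its log2 fold change, 1.29, is itself the median of the list. That median therefore depends on genes that entered the test through CML. Nrros, which tethers latent TGF-beta on myeloid cells, was the most abundant gene of the list, at 257 to 283 CPM in CML and 182 to 247 CPM in WT, and did not pass (adjusted p = 0.115, edgeR; chosen after its values were seen).

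Most receptor-level regulators were not called, with 1 of 11 tested genes higher, 2 lower and 8 not called (median -0.20), beside 10.2% higher and 7.20% lower over all tested genes. Without CML replicate 1, and when scaled by library totals, 2 were higher. Fkbp1a, whose product FKBP12 binds the type I receptor and keeps it inactive, was at 93.7, 109.8 and 92.3 CPM in CML, against 219, 225 and 215 CPM in WT. It fell by 1.16 on the log2 scale (SE 0.11, adjusted p = 2.27e-05, edgeR). Ldlrad4, which encodes an inhibitor that keeps SMAD2 and SMAD3 from the receptor, rose by 1.17 (SE 0.22, adjusted p = 0.00266, edgeR). Bambi, a decoy receptor gene, fell by 0.83 (SE 0.25, adjusted p = 0.0363, edgeR), with 256 counts in CML and 478 in WT. It missed the threshold when scaled by library totals (adjusted p = 0.0663) and without any of the 6 libraries other than CML replicate 1. Those adjusted p-values were 0.125 and 0.0803 without CML replicates 2 and 3 and 0.0514, 0.0588 and 0.102 without WT replicates 1, 2 and 3.

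Further from the receptors, 17 ubiquitin ligases, deubiquitinases and phosphatases of SMADs were tested. Of these, 3 were higher, 1 lower and 13 not called (median 0.08), beside 10.2% higher and 7.20% lower over all tested genes. Without WT replicate 3 the counts among the 17 were 4 higher and 5 lower. Smurf1, an E3 ligase that SMAD7 brings to the receptor, was at 13.2, 19.5 and 16.0 CPM in CML, against 6.27, 8.27 and 8.22 CPM in WT. Its log2 fold change was 1.09 (SE 0.19, adjusted p = 0.00184, edgeR). The ligase gene Wwp2 rose by 0.66 and the deubiquitinase gene Usp11 by 0.60 (adjusted p = 0.00191 and 0.00336). Usp15, which encodes a deubiquitinase of the type I receptor, fell by 0.51 (adjusted p = 0.0104; 0.0525 without CML replicate 3).

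Nuclear partners of SMADs were mostly not called. Of 17 tested, 2 were higher, 1 lower and 14 not called (median 0.07), beside 10.2% higher and 7.20% lower over all tested genes. Without WT replicate 1 or WT replicate 3, 2 of the 17 were lower. Runx1, a haematopoietic transcription factor gene, was at 160.0, 171 and 171 CPM in CML, against 110.5, 115 and 102 CPM in WT, a difference of 0.61 on the log2 scale (SE 0.11; edgeR, adjusted p = 0.00191). Tgif1, a SMAD corepressor gene, fell by 0.70 (SE 0.13, adjusted p = 0.00266, edgeR), opposite to Ski and Skil. Zeb2, which encodes a SMAD-interacting repressor, rose by 0.77 (adjusted p = 0.0332, edgeR). Zeb2 missed the threshold with CML replicate 2 left out (adjusted p = 0.0859), likewise CML replicate 3 (0.0972) or WT replicate 2 (0.0982). The 7 genes of the TAK1 kinase branch of the receptor gave 0 higher and 0 lower calls with edgeR, DESeq2 and limma-voom, and 0 and 1 without adjustment. Without WT replicate 3, 2 of the 7 were called lower. The lowest p among them was that of Traf6, an adaptor ligase gene, at 85.6 to 94.0 CPM in CML and 105 to 114 CPM in WT (log2 fold change -0.28, adjusted p = 0.0856, edgeR; 0.0319 without WT replicate 3).

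The parallel activin and BMP (bone morphogenetic protein) branch was less well covered. Of 19 ligands and antagonists 5 were tested, with 2 higher, 1 lower and 2 not called, beside 10.2% higher and 7.20% lower over all tested genes. For Bmp7 the sums were 384 counts in CML and 4 in WT, and the log2 fold change was 6.57 (SE 0.70; edgeR, adjusted p = 3.04e-04). Bmp7 passed the low-count filter through CML and could hardly have been called lower. Inhba, the activin A subunit gene, rose by 1.63 (adjusted p = 0.0102; 0.0572 without WT replicate 2). Gdf15, a stress-induced member of the superfamily, fell by 0.82 (adjusted p = 0.0442). That call was lost in 6 of the 16 alternatives, with adjusted p-values of 0.0541 and 0.172 without CML replicates 1 and 3, 0.0641, 0.143 and 0.0731 without WT replicates 1, 2 and 3, and 0.0743 when scaled by library totals.

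Of the 6 tested receptors of that branch, 1 was higher, 1 lower and 4 not called, beside 10.2% higher and 7.20% lower over all tested genes. Without CML replicate 1, 2 were higher. Acvr1, a type I receptor gene, was at 7.85, 10.4 and 8.58 CPM in CML, against 3.41, 1.96 and 3.49 CPM in WT, a difference of 1.59 on the log2 scale (SE 0.25; edgeR, adjusted p = 8.14e-04). Acvr2a, a type II receptor gene, fell by 0.45 (adjusted p = 0.0315). It missed the threshold when scaled by library totals (0.0814), without CML replicate 2 (0.0778) or 3 (0.124), and without WT replicate 1 (0.0884) or 2 (0.160). Of the other SMADs, 0 of 3 tested were higher and 1 was lower, beside the same shares over all tested genes. Those counts were the same without adjustment and with DESeq2 or limma-voom. Smad5, a BMP-branch SMAD gene, fell by 0.36 to 283 ± 13.3 CPM in CML, against 364 ± 5.63 CPM in WT (SD, n = 3 each; edgeR, adjusted p = 0.0335). That call was lost with library totals (0.0956), without CML replicate 2 (0.161) or 3 (0.112), and without WT replicate 1 (0.0847) or 2 (0.115).

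Downstream, 22 genes known to be induced by TGF-beta in other cells were listed, of which 14 were tested. Of these 7 rose, 3 fell and 4 did not pass (DESeq2 6 and 3, limma-voom 7 and 3), with a median log2 fold change of 0.96. Over all tested genes, 10.2% were called higher and 7.20% lower, with a median of -0.004. Junb, an AP-1 factor gene that many signals induce, was at 34.1, 42.1 and 36.6 CPM in CML, against 13.4, 12.4 and 16.6 CPM in WT, a difference of 1.41 on the log2 scale (SE 0.15; edgeR, adjusted p = 4.35e-05). Gadd45b, a stress response gene, was at 19.0, 16.1 and 17.8 CPM in CML, against 3.29, 1.77 and 4.24 CPM in WT. It rose by 2.50 on the log2 scale (SE 0.25; edgeR, adjusted p = 3.99e-05). Bhlhe40, a transcriptional repressor gene, rose by 1.12. Itgae, the integrin gene of CD103, rose by 4.37, with 256 counts in CML and 13 in WT (adjusted p = 7.94e-05, edgeR). Itgae and Mmp2, a further gene of the 7 that rose, passed the low-count filter through CML and could hardly have been called lower. Mmp2 was chosen after its values were seen and had 74 counts in CML and 29 in WT. The count of higher genes and the median of this list include Itgae and Mmp2.

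Other members of the same list moved the opposite way. The genes of this paragraph were chosen after their values were seen. Klf10, a TGF-beta early response gene, fell by 0.65, with 77.1 to 87.0 CPM in CML and 124 to 144 CPM in WT (adjusted p = 0.00188, edgeR). Timp3, a metalloprotease inhibitor gene, fell by 0.89 (adjusted p = 0.00277, edgeR). Fn1, the fibronectin gene, fell by 1.88, with 13 counts in CML and 52 in WT (adjusted p = 0.0104, edgeR). It passed the low-count filter through WT, so that it could hardly have been called higher. The count of lower genes and the median of the list include Fn1.

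Of the 4 ID genes, targets of the BMP branch that encode inhibitors of basic helix-loop-helix factors, 2 were tested and they moved apart. Id1 was at 20.0, 15.0 and 13.9 CPM in CML, against 33.9, 40.2 and 47.5 CPM in WT, a difference of -1.31 on the log2 scale (SE 0.17; edgeR, adjusted p = 2.00e-04). Id2 was at 22.5, 84.0 and 46.0 CPM in CML, against 6.09, 4.99 and 8.28 CPM in WT. It rose by 2.97 on the log2 scale (SE 0.57; edgeR, adjusted p = 0.0264). Id2 missed the threshold with CML replicate 3 left out (adjusted p = 0.0805), likewise WT replicate 1 (0.154), 2 (0.121) or 3 (0.0584), and with no low-count filter (0.0662).

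**Figure D4:**
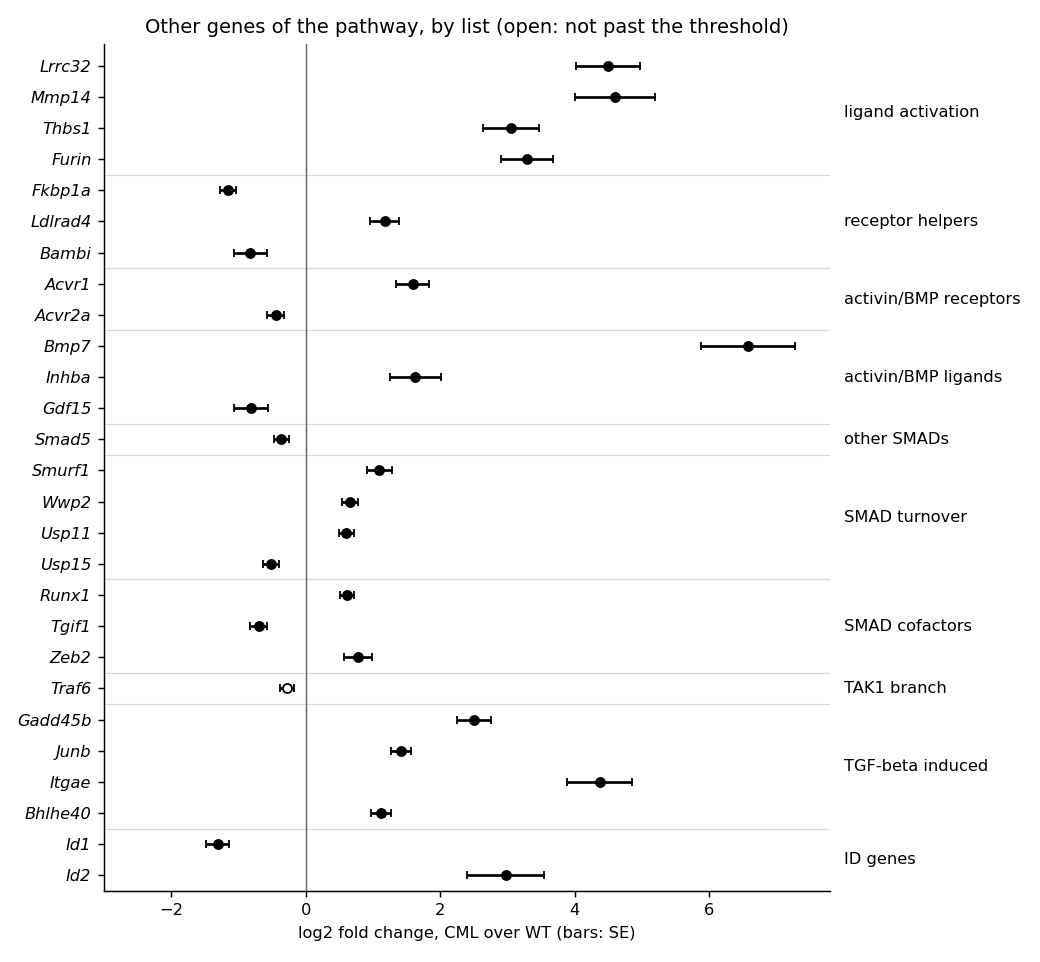
Log2 fold change, CML over WT (horizontal axis, bars for the SE), of the named genes of the wider pathway, grouped by list, with filled points past the threshold and an open point for the gene that is not. The ligand activation genes Lrrc32, Mmp14, Thbs1 and Furin all lie above 3, the receptor, turnover and cofactor genes lie on either side of 0, and Id1 and Id2 lie on opposite sides.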

How the data were processed

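Bulk RNA-seq of 3 CML and 3 WT mouse libraries was analysed, with group and replicate number read from the sample titles. What the authors deposited are estimated counts per gene symbol, not scaled to a common total, and 31.1% to 33.4% of the entries of a library lay more than 0.001 from a whole number. The submitters' processing notes name mm10 as build and STAR 2.7.3a and Partek 8.0 as tools, without roles. How reads shared by overlapping genes were counted, and with which annotation and strand setting, is not stated there, so such genes are uncertain.

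Counts were rounded, genes were filtered with filterByExpr (minimum count 10, leaving 16221), and CML was tested against WT with edgeR 4.0.16 in R 4.3.3 (TMM, robust quasi-likelihood F test, two-sided, group as the only term). P-values were adjusted over all tested genes with the Benjamini-Hochberg method. SEs were derived from the fold change and F, and 95% intervals from the SE. The procedure was checked on simulated counts. DESeq2 1.42.0 and limma-voom (limma 3.58.1) were alternatives, together with other scalings, filters, thinning, unrounded counts, a replicate block and leaving out each library. TPM used union exon lengths from GENCODE M21 (GRCm38, the assembly of mm10), matched by symbol for 96.7% of symbols, with 96.9% or more of every library's counts. Coordinates come from the same annotation, and promoters from RefSeq.

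The members and lists were chosen with earlier results of these data known, and no list was tested as a set. The text names all 10 members, and from each other pathway list up to 4 called genes with the lowest adjusted p, or the gene with the lowest p. Marker lists are given as counts and sums, and other genes are said to be chosen after their values were seen. Amhr2, Nog and Foxh1 were not analysed here.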

Additional observations from a re-analysis of the deposited data

How the results depend on the processing

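The counts of 4 higher and 2 lower genes among the 10 were kept under every scaling, filter and tool tried. Leaving out 1 library gave 3 to 4 higher and 2 lower. Over all genes, leaving out 1 library gave 1466 to 4122 changed genes against 2820, with 1861 without CML replicate 2, 1771 without CML replicate 3, 1857 without WT replicate 1 and 1466 without WT replicate 2. The higher share of all calls was 58.6%, 73.8% when scaled by library totals and 49.0% without WT replicate 3. The sign of Smad2, near 0, turned with DESeq2 size factors (-0.0044), the DESeq2 test (-0.0044), no filter (-0.028) and thinning (-0.010), and ran from -0.013 to 0.011 without 1 library. Tgfb1 ran from -0.29 to 0.12 without 1 library, turning without CML replicate 1. The causes were not tested.

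The labels do not say that equal replicate numbers mark a shared source, and deviations of same-numbered libraries correlated at -0.021, -0.052 and 0.0087. With the number as a replicate block, 2807 genes were called, with 4 higher and 2 lower among the 10. Among the other named genes, Zeb2 (adjusted p = 0.0556) and Id2 (0.0536) lost their call under it. Few counts limit the named genes Mmp14, Lrrc32, Bmp7, Itgae and Inhba. With a mean of 50 counts required, Mmp14, Lrrc32, Itgae and Inhba were not tested, whereas Bmp7 was kept. Under that filter, 2 ligand activation genes and 1 activin or BMP ligand were higher.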
